A study of Homo sapiens with 12 samples.

Results

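The collagen gene family was taken as the rows of the count table whose symbol is COL, a number, A and a number, with nothing after. The rule found 44 of 56638 genes: 11 fibrillar collagens, 9 network-forming, 10 fibril-associated, 4 transmembrane, 5 beaded-filament, 1 anchoring-fibril and 2 multiplexin genes, and 2 genes placed in no class (COL26A1 and COL28A1). RNA was sequenced from NT2/D1 cells, an established human line of embryonal carcinoma, pluripotent cells known to take up a neural fate in retinoic acid. The cells were a CRISPR/Cas9 control and a PRMT6 knockout labelled KO-2, the only knockout line in the samples analysed here. PRMT6 is an enzyme that methylates arginine in histone H3 and other proteins. Each genotype was left untreated or given all-trans retinoic acid (ATRA) at 1 µM for 3 days, which made 4 groups of 3 libraries. Nothing in the labels ties the 3 libraries of a group to different cultures, and the p-values below therefore measure only how far these libraries spread, which can be technical.

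Collagens are secreted or membrane proteins in which alpha chains, each the product of its own gene, wind into a helix. Fibrillar collagens (types I, II, III, V, XI, XXIV and XXVII) form the tensile fibres of connective tissue, and types V and XI sit inside the fibres of types I and II and set their width. Type IV builds the sheet of basement membranes, and it is among the matrix proteins that embryonal carcinoma cells are known to make when they turn into endoderm. Fibril-associated collagens coat the fibres, type VI forms beaded filaments around cells, type VII anchors epithelium to the tissue below, and the multiplexins XV and XVIII lie in basement membranes.

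The stretches before the start sites of 3 loci are shown because these genes were higher in the knockout in the comparisons below: COL11A1 was called with and without ATRA, COL5A1 encodes a chain that combines with its product in some fibrils, and COL4A1 and COL4A2 start back to back. They are RefSeq sequences on GRCh38.p14, read 5′ to 3′ on the gene's own strand for the first 2 and on the plus strand for the shared stretch, at chr1:103108523-103108772 (minus strand), chr9:134641553-134641802 (plus strand) and chr13:110307158-110307283. The first 2 cover the 250 bases before the start site, and the third is the whole of the 126 bases between the 2 starts. Capitals mark the letters CCAAT and GGGCGG on either strand, so that ATTGG and CCGCCC are the same words read from the other strand.
COL11A1: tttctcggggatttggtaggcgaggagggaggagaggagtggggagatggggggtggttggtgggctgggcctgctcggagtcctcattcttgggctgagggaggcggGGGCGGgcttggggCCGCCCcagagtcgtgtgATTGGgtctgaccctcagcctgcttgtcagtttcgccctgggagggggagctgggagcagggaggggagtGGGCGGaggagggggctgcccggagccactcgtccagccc
COL5A1: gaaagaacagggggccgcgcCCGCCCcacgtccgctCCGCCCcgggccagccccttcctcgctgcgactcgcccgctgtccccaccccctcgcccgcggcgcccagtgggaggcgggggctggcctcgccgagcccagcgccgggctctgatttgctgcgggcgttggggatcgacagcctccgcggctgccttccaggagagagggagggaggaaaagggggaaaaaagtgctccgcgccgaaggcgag
COL4A1-COL4A2: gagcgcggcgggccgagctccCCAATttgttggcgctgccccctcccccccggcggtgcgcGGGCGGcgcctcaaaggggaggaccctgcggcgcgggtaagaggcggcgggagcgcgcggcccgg

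COL11A1 holds GGGCGG 3 times and CCAAT once, COL5A1 holds GGGCGG at 2 places and no CCAAT, and the stretch between COL4A1 and COL4A2 holds 1 of each with 20 CpG dinucleotides. A 250-base window was found for 32 of the 44 collagen genes. GGGCGG was in 18 of them (56.2%), against 42.6% of 35114 windows of all genes, CCAAT in 9 (28.1%), against 32.0%, and TATAAA in 5 (15.6%), against 10.7%. The collagen windows had a higher median GC content (65.2% against 58.0%) and more CpG (median 16 against 11), and the part of this in the shares was not tested. Collagens were counted with 1 window per gene, and the windows of all genes were not reduced in this way. Other type IV genes are also arranged back to back, with 418 bases between the starts of COL4A3 and COL4A4 and 379 bases between those of COL4A5 and COL4A6. The 250-base windows of such paired genes overlap, so 1 stretch can be counted for both genes. A match of letters is a description and not a binding site.

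Libraries held 25.5 to 60.4 M counts, at which 3 counts, the limit that a count of 0 allows, equal 0.0433 to 0.128 CPM. CPM, the unit of every level below, is a gene's count relative to the size of its library, with sizes scaled by edgeR's TMM method. PRMT6 had 839, 110 and 620 counts in the untreated control libraries and 972, 612 and 1035 in the control libraries with ATRA. Control untreated 2, at 110, was the lowest control although its library held 52.7 M counts. The 6 knockout libraries had 0 to 2 counts of PRMT6. Summed pluripotency markers (POU5F1, NANOG, SOX2 and 7 more) stood at 2342 to 8385 CPM over the 12 libraries, as the label of the line has it. Untreated, the sums were 5241 to 7875 CPM in the control and 5120 to 8385 CPM in the knockout. With ATRA they were lower without overlap, at 3649 to 4934 CPM in the control and 2342 to 3439 CPM in the knockout. Some libraries lay close together: over all genes the chi-square statistic was 1.91 per gene between knockout ATRA 1 and 3 and 9.01 between knockout untreated 1 and 2, against at least 78.1 for any other same-group pair. The median collagen gene differed by 0.0486 on the log2 scale between knockout ATRA 1 and 3, by 0.200 between knockout untreated 1 and 2, and by 0.601 to 1.27 in the other same-group pairs. In both knockout groups the remaining library, knockout untreated 3 or knockout ATRA 2, stood apart. By chi-square so did control untreated 2, at 416 and 333 per gene against 205 for the other pair of its group. Control ATRA 2 did too, at 227 and 314 against 87.3. By the median log2 difference over all genes, control untreated 2 and 3 were instead the closest pair of their group (0.473). Over the collagens control untreated 2 stood apart (1.27 and 1.18 against 0.815), and the control ATRA pairs were alike (0.663 to 0.697). Whether the close libraries are separate cultures is not stated, and results are given below with each close pair summed to 1 library.

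**Figure D1:**
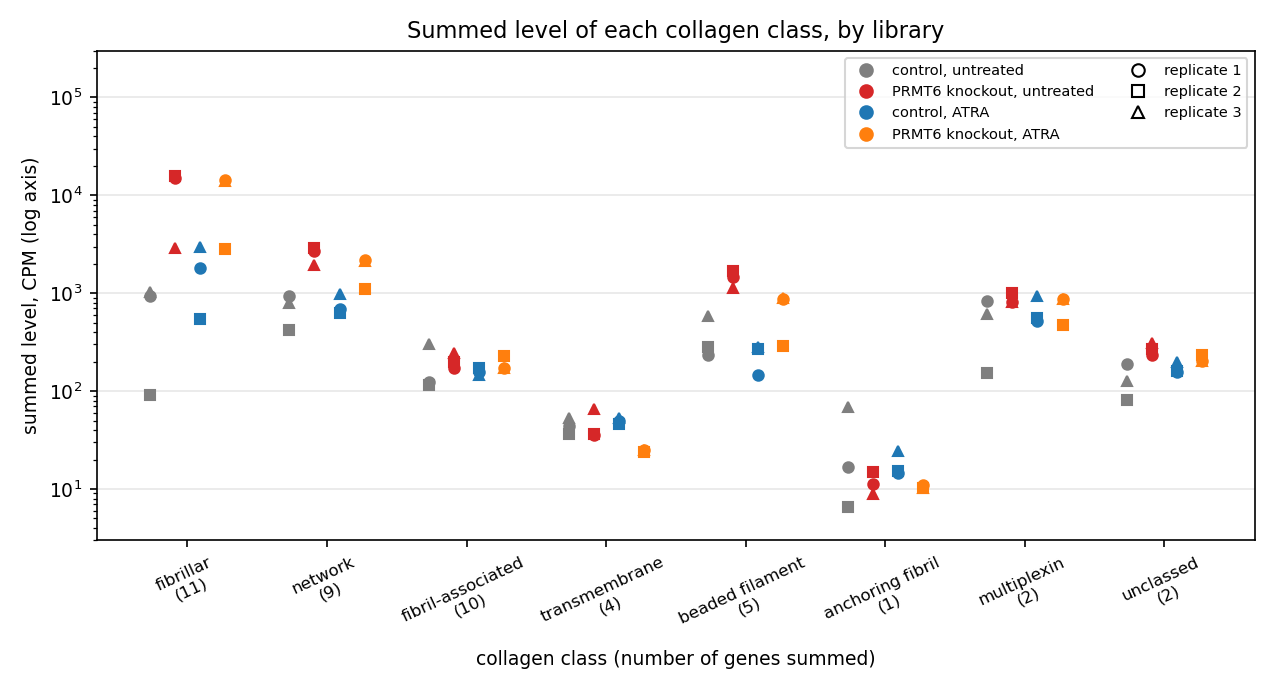
Summed level of each collagen class on a log axis of CPM, 1 point per library, with colour for the group and marker shape for the replicate number. Fibrillar collagens lie at 15196, 15935 and 2888 CPM in the untreated knockout, above all 3 untreated control libraries, whereas the fibril-associated and transmembrane classes overlap.

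Of the 44 genes, 32 reached a mean of 5 CPM in at least 1 group, 16 reached 50 CPM, and 41 passed the filter on low counts. COL10A1 had no count in any library, and COL4A3 and COL6A5 stayed below the filter. All collagens together took 0.330, 0.119 and 0.358% of the TMM-scaled library size in the untreated control libraries and 2.06, 2.21 and 0.736% in the untreated knockout. With ATRA the shares were 0.354, 0.240 and 0.557% in the control and 1.86, 0.522 and 1.85% in the knockout. On a scale per kilobase of the deposited gene length, which allows levels of different genes to be compared, COL18A1 led the untreated control at 62.3 ± 40.4 CPM per kilobase (SD, n = 3), followed by COL4A2 at 47.9 ± 17.1 and COL26A1 at 40.4 ± 17.3. These differences are within the spread between libraries, and COL3A1 was the 11th at 9.41 ± 8.76. In the untreated knockout COL3A1 led at 1115 ± 799, ahead of COL4A2 at 188 ± 46.1 and COL1A1 at 163 ± 98.1. COL3A1 alone made up 2.11, 0.159 and 3.38% of all collagen CPM in the untreated control libraries and 51.3, 49.5 and 17.9% in the untreated knockout libraries.

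Genes of fibrillar, basement-membrane and type VI collagens were among those higher in the untreated knockout than in the untreated control. Of 41 tested collagen genes, 15 rose and 2 fell (edgeR's quasi-likelihood test, adjusted p under 0.05), which is 36.6% and 4.88% of them, against 13% and 21.9% of all 19130 genes tested (34.9% called in all). The median log2 fold change was 0.98 over the collagen genes and -0.11 over all genes, and 30 of the 41 had a positive sign. The libraries of both genotypes did not overlap for 20 collagen genes (48.8%), against 47.9% of all genes, so non-overlap was as common among collagens as elsewhere; 17 were higher and 3 lower in the knockout, against 20.9% and 27% of all genes. COL3A1, COL4A1, COL4A2 and COL6A1 were called in all 23 alternative settings. Their highest adjusted p there, by the test of each setting, was 0.0483, 0.0412, 0.0444 and 0.0430, near the threshold. With the close libraries summed these 4 were the only collagen genes called, while all genes called went from 6676 to 1072. The untreated genotypes also differed in GC trend: the rank correlation, across genes, of GC content with a gene's deviation from its mean log2 level was -0.230 to -0.393 in the control libraries and 0.331 to 0.487 in the knockout libraries. With an offset for GC, 3065 of all genes and 13 collagen genes were called, and COL1A1, COL6A3, COL26A1 and COL8A2 were not (adjusted p 0.0505 to 0.113, edgeR). In bulk RNA, more cells of a type and more RNA per cell cannot be told apart.

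**Figure D2:**
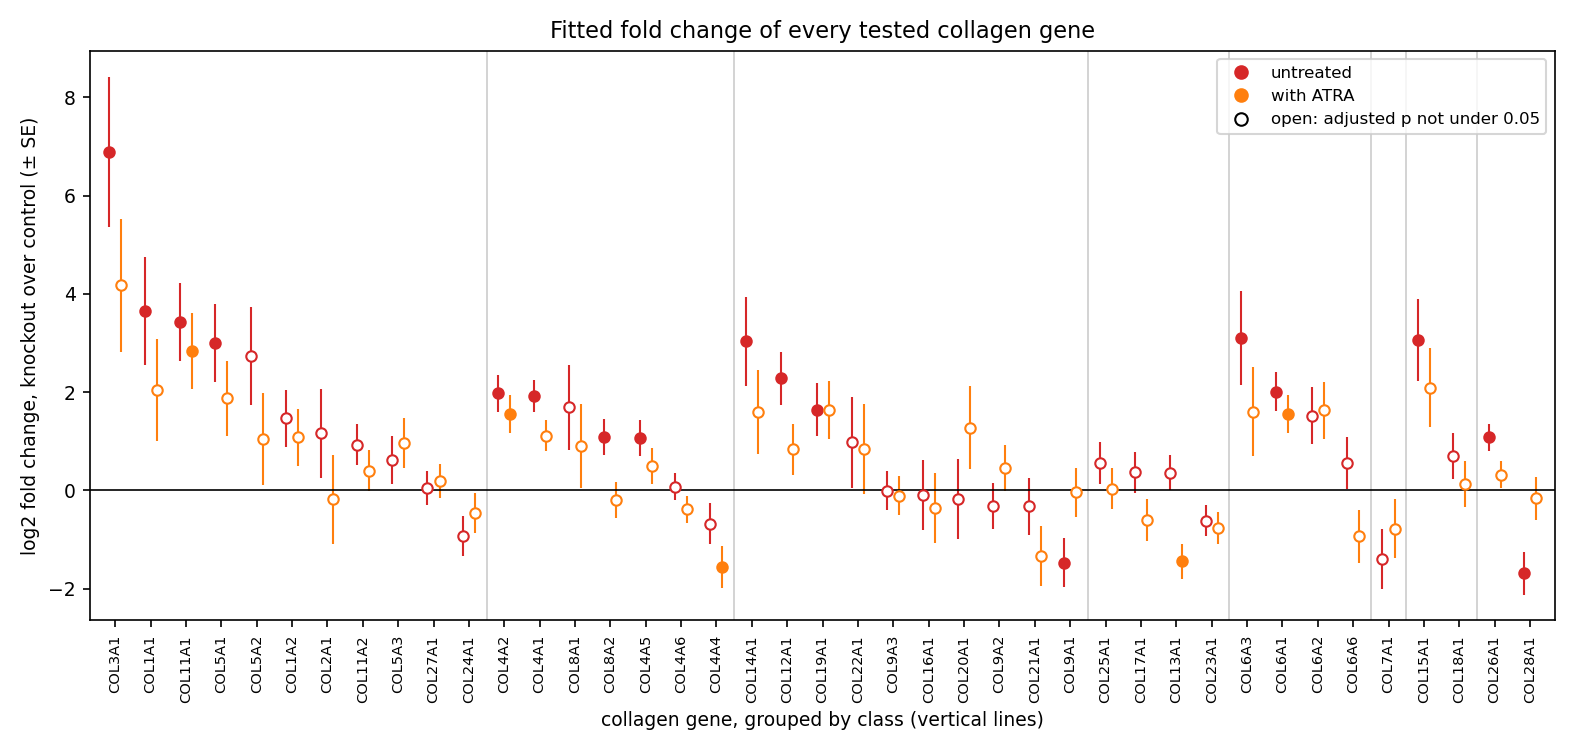
Fitted log2 fold change of knockout over control for each of the 41 tested collagen genes, with its standard error, untreated in red and with ATRA in orange, grouped by class. Filled points passed the test; the largest increase is that of COL3A1 without ATRA, at 6.89.

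Among the fibrillar genes, 4 of 11 (36.4%) rose and none fell, against 13% and 21.9% of all genes (34.9% called in all). COL3A1, the single chain of type III collagen, which is abundant in vessel walls and embryonic connective tissue, had 69.7, 1.88 and 121 CPM in the untreated control libraries and 10569.6, 10915 and 1319 CPM in the untreated knockout libraries. The lowest knockout library, knockout untreated 3, was still above the highest control library, and control untreated 2 was far below the other controls. The fitted level was 118-fold higher (log2 6.89, SE 1.54, adjusted p = 0.00753). COL1A1, the major chain of type I collagen, had 212, 7.87 and 161 CPM in the control and 2031, 2268 and 494 CPM in the knockout, with no overlap. Its fitted level was 12.6-fold higher (log2 3.65, SE 1.10, adjusted p = 0.0239). COL1A2, the minor chain of type I collagen, stood at 17.4, 2.34 and 24.3 CPM in the control and 36.0, 38.0 and 47.3 CPM in the knockout and did not pass the test (log2 1.46, SE 0.587, adjusted p = 0.0693). Unlike COL1A1, COL1A2 was not lower in knockout untreated 3 than in the other knockout libraries.

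COL5A1, a chain that starts the assembly of type I fibrils, had 172, 14.2 and 111 CPM in the untreated control and 936, 1048 and 388 CPM in the untreated knockout. Every knockout library exceeded every control library, and the fitted level was 8-fold higher (log2 3.00, SE 0.802, adjusted p = 0.0148). COL5A2, its partner chain, had 149.9, 3.45 and 56.0 CPM in the control and 586, 584 and 217 CPM in the knockout and just missed the threshold (log2 2.73, SE 0.998, adjusted p = 0.0502). COL11A1, a chain of type XI collagen and of mixed type V and XI fibrils, had 34.9, 7.01 and 39.6 CPM in the control and 406, 389 and 85.8 CPM in the knockout. Again there was no overlap, and the fitted level was 10.8-fold higher (log2 3.44, SE 0.793, adjusted p = 0.00852). COL2A1, the chain of cartilage type II collagen, reached high levels in both genotypes, with 223, 6.96 and 421 CPM in the control and 564, 615 and 275 CPM in the knockout. Its groups overlapped and it was not called (log2 1.16, SE 0.913, adjusted p = 0.332). The other fibrillar genes were not called either: COL27A1 averaged 37.1 ± 18.5 CPM in the control and 38.4 ± 3.43 CPM in the knockout (SD, n = 3). COL5A3 averaged 13.1 ± 6.98 and 20.1 ± 5.74 CPM, COL24A1 9.24 ± 5.24 and 4.87 ± 0.401 CPM, and COL11A2 2.56 ± 1.28 and 4.87 ± 1.49 CPM in the same order.

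**Figure D3:**
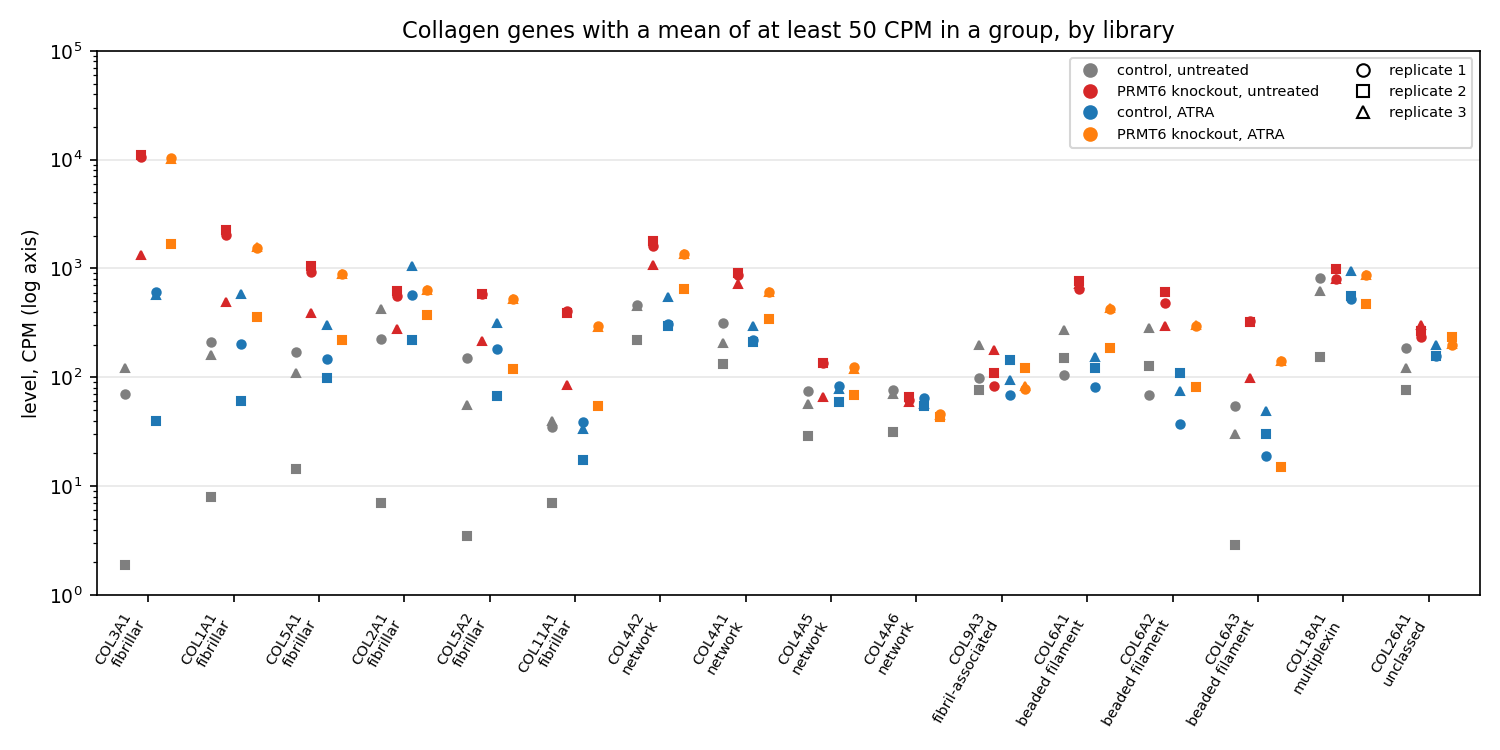
Level of the 16 collagen genes with a group mean of at least 50 CPM, on a log axis of CPM, 1 point per library, with colour for the group and marker shape for the replicate number. The gap between genotypes is widest for COL3A1. Control untreated 2 (grey square) is the lowest point for every gene shown except COL6A1, COL6A2 and COL9A3.

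Network-forming genes showed 4 increases (57.1%) and no decrease among 7 tested, against 13% and 21.9% of all genes. COL4A1 and COL4A2 encode the chains of the type IV collagen found in nearly all basement membranes. COL4A1 had 318, 133 and 206 CPM in the untreated control and 872, 916 and 714 CPM in the untreated knockout, and COL4A2 had 458, 222 and 454 CPM and 1601, 1771 and 1073 CPM. For both genes the knockout libraries lay above all controls, and knockout untreated 3 differed less from its group than it did for COL3A1. COL4A1 was 3.81-fold higher (log2 1.93, SE 0.325, adjusted p = 0.00314) and COL4A2 3.92-fold higher (log2 1.97, SE 0.386, adjusted p = 0.00500). COL4A5 and COL4A6 encode chains of another type IV network, found in smooth muscle and some epithelial basement membranes. COL4A5 had 74.6, 28.9 and 57.0 CPM in the control and 136, 134 and 65.6 CPM in the knockout, so that knockout untreated 3 lay within the control range. It was 2.10-fold higher (log2 1.07, SE 0.372, adjusted p = 0.0420). COL4A6, whose start lies beside that of COL4A5, had 77.2, 31.5 and 69.6 CPM and 62.5, 66.6 and 58.8 CPM and gave no call (log2 0.08, SE 0.273, adjusted p = 0.843). COL8A2, a chain of a short-chain network collagen known from the cornea, rose from 2.72 ± 0.952 to 5.80 ± 0.833 CPM (adjusted p = 0.0363, edgeR). Its partner COL8A1 stood at 1.95 ± 1.51 and 6.27 ± 3.59 CPM without passing the test (adjusted p = 0.142).

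Type VI collagen is built from the products of COL6A1 and COL6A2 with that of COL6A3 or a related chain. COL6A1 had 106, 149.5 and 273 CPM in the untreated control and 641, 767 and 718 CPM in the untreated knockout, where knockout untreated 3 was as high as its group. The fitted level was 4.02-fold higher (log2 2.01, SE 0.392, adjusted p = 0.00496). COL6A3 had 54.8, 2.89 and 30.0 CPM in the control and 330.2, 320.4 and 97.8 CPM in the knockout, with no overlap, and was 8.55-fold higher (log2 3.10, SE 0.960, adjusted p = 0.0266). COL6A2 had 69.4, 128 and 284 CPM and 477, 606 and 298 CPM. Its groups did not overlap, but only a narrow gap parted control untreated 3 from knockout untreated 3, and it was not called (log2 1.52, SE 0.580, adjusted p = 0.0579). COL6A6 stayed at 3.29 ± 1.92 and 4.85 ± 0.663 CPM (adjusted p = 0.425).

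Fibril-associated collagens were mixed, with 3 increases (30%) and 1 decrease (10%) among 10, against 13% and 21.9% of all genes. COL12A1, whose product lies on type I fibrils, had 4.38, 2.76 and 7.04 CPM in the untreated control and 25.1, 22.0 and 22.0 CPM in the untreated knockout. The 3 knockout libraries lay close together and above all controls (4.86-fold higher; log2 2.28, SE 0.536, adjusted p = 0.00917). COL14A1, of similar build, had 1.73, 0.986 and 3.36 CPM and 25.4, 21.8 and 2.87 CPM. The library knockout untreated 3 lay within the control range, and the fitted level was 8.20-fold higher (log2 3.04, SE 0.906, adjusted p = 0.0229). COL19A1 was called at very low levels, 0.167 ± 0.0763 CPM against 0.521 ± 0.151 CPM (log2 1.64, SE 0.537, adjusted p = 0.0329). COL9A1, a chain of the type IX collagen of cartilage, fell, from 3.10, 4.91 and 12.7 CPM to 2.39, 2.68 and 2.35 CPM (log2 -1.48, SE 0.499, adjusted p = 0.0371). The gap rested mainly on control untreated 3. COL9A3, the most abundant gene of the class, had 97.7, 75.9 and 199 CPM in the control and 82.8, 109 and 179.5 CPM in the knockout, which overlapped (log2 -0.00, SE 0.396, adjusted p = 0.994). COL9A2 stood at 33.2 ± 29.2 and 26.7 ± 3.45 CPM and COL22A1 at 3.11 ± 1.53 and 6.16 ± 0.408 CPM, without calls.

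COL18A1, the basement-membrane multiplexin from which endostatin is cut, was among the highest collagens in all 4 groups. It had 825, 152 and 616 CPM in the untreated control and 795, 986 and 804 CPM in the untreated knockout, which overlapped (log2 0.70, SE 0.472, adjusted p = 0.260). COL15A1, the related multiplexin, rose from 1.09, 1.34 and 0.562 CPM to 11.7, 11.2 and 2.05 CPM (8.35-fold higher; log2 3.06, SE 0.826, adjusted p = 0.0154). Its level in knockout untreated 3 was closer to the controls than to its group. COL26A1 rose from 185, 76.8 and 121 CPM to 233, 268 and 305 CPM (2.11-fold higher; log2 1.08, SE 0.274, adjusted p = 0.0123). COL28A1 fell from 2.14, 4.72 and 5.45 CPM to 1.30, 0.916 and 1.63 CPM (3.21-fold lower; log2 -1.68, SE 0.438, adjusted p = 0.0133), without overlap. COL7A1, the chain of anchoring fibrils, averaged 30.5 ± 33.1 CPM in the control, where control untreated 3 alone had 68.3 CPM, and 11.6 ± 2.97 CPM in the knockout (adjusted p = 0.0923). None of the 4 transmembrane genes was called, against 34.9% of all genes. COL13A1 averaged 21.0 ± 8.61 and 27.0 ± 12.4 CPM, COL23A1 19.4 ± 6.38 and 12.7 ± 2.56, COL25A1 2.55 ± 1.45 and 3.78 ± 1.05, and COL17A1 1.79 ± 0.102 and 2.32 ± 1.37. In all, 12 genes stayed below 5 CPM in every group: COL4A3, COL4A4, COL6A5, COL10A1, COL11A2, COL16A1, COL17A1, COL19A1, COL20A1, COL21A1, COL25A1 and COL28A1.

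Several of these calls depended on single libraries, though no called collagen gene changed direction in any setting that kept it. Without knockout untreated 2, 7 collagen genes were called, and COL1A1, COL4A5, COL5A1, COL6A3, COL8A2, COL9A1, COL14A1, COL15A1, COL19A1 and COL28A1 had adjusted p of 0.0510 to 0.134. Without knockout untreated 1, 9 were called, and COL1A1, COL4A5, COL6A3, COL8A2, COL9A1, COL14A1, COL15A1 and COL19A1 had adjusted p of 0.0511 to 0.131. Without control untreated 3, 10 were called, and COL1A1, COL4A5, COL5A1, COL6A3, COL9A1, COL15A1, COL19A1 and COL28A1 had adjusted p of 0.0522 to 0.246. Leaving out control untreated 2 took the calls of COL4A5, COL8A2, COL14A1 and COL19A1 (0.0722 to 0.116), and leaving out knockout untreated 3 took those of COL8A2, COL9A1 and COL19A1 (0.0929 to 0.103). Removing an ATRA library, which only adds to the estimate of spread, moved COL4A5, COL8A2, COL9A1 or COL19A1 to 0.0501 to 0.0561 in 4 of 6 cases. COL11A1 and COL12A1 lost their calls only with the close libraries summed, at 0.0531 and 0.0540. All these are adjusted p from edgeR's quasi-likelihood test. Leaving out knockout untreated 3 and knockout ATRA 2 together gave 14 calls. The number of all genes called moved as well, from 6676 with all libraries to 3058 without knockout untreated 2 and 3788 without knockout untreated 1. It was 3548 without control untreated 3, 5428 without control untreated 2 and 4787 without knockout untreated 3. With knockout untreated 3 and knockout ATRA 2 both left out it was 4467, and with 1 ATRA library left out it was 5738 to 7891.

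With ATRA fewer collagen genes passed the test. Of 41, 3 rose in the knockout (COL11A1, COL4A2 and COL6A1) and 2 fell (COL13A1 and COL4A4), 12.2% in all against 7.51% of all genes (3.27% higher and 4.24% lower), and 13 (31.7%) had an unadjusted p under 0.05, against 28.1% of all genes. The median log2 fold change was 0.46 over the collagens and -0.06 over all genes. The libraries of the genotypes did not overlap for 13 collagen genes (31.7%), 8 higher and 5 lower in the knockout, against 34.6% of all genes (16.7% higher and 17.9% lower). COL11A1 had 38.8, 17.5 and 33.5 CPM in the control with ATRA and 297, 54.1 and 288 CPM in the knockout with ATRA (7.12-fold higher; log2 2.83, SE 0.773, adjusted p = 0.0449). COL4A2 had 308, 293 and 548 CPM and 1367, 646 and 1369.8 CPM (2.94-fold higher; log2 1.56, SE 0.381, adjusted p = 0.0316). COL6A1 had 82.3, 121 and 155 CPM and 423, 188 and 434 CPM (2.92-fold higher; log2 1.54, SE 0.386, adjusted p = 0.0340). None of these 3 overlapped between genotypes, and in each knockout ATRA 2 was the lowest knockout library.

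COL13A1, a transmembrane collagen found at cell junctions and the neuromuscular synapse, fell from 29.6, 24.7 and 32.7 CPM in the control with ATRA to 9.88, 11.6 and 10.4 CPM in the knockout with ATRA (2.73-fold lower; log2 -1.45, SE 0.358, adjusted p = 0.0327). Its 3 knockout libraries agreed closely and lay below every control. COL4A4, a chain of the type IV network of the kidney filter, fell at low levels, from 2.28, 3.72 and 2.62 CPM to 1.01, 0.470 and 1.43 CPM (log2 -1.56, SE 0.430, adjusted p = 0.0467). COL3A1 had 613, 39.3 and 569 CPM in the control and 10266, 1670.4 and 10144 CPM in the knockout. These groups did not overlap, yet COL3A1 missed the threshold (18.1-fold higher; log2 4.18, SE 1.35, adjusted p = 0.0737). COL4A1, with 222, 209 and 294 CPM and 614, 340.2 and 611 CPM, also did not overlap and missed it narrowly (log2 1.11, SE 0.318, adjusted p = 0.0520). COL1A1 had 202, 60.9 and 585 CPM and 1553, 357 and 1581 CPM, so that knockout ATRA 2 fell below control ATRA 3 (adjusted p = 0.217, edgeR). The same overlap through knockout ATRA 2 was seen for COL5A1, with 148, 98.6 and 302 CPM against 893, 221 and 897 CPM (adjusted p = 0.136).

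Members of the same trimers and the other abundant collagens did not pass the test with ATRA. COL6A2 had 37.0, 109 and 74.9 CPM in the control and 295, 82.3 and 305 CPM in the knockout (adjusted p = 0.0977), and COL6A3 had 18.9, 30.3 and 49.1 and 142, 14.9 and 141 CPM (adjusted p = 0.269). For both, knockout ATRA 2 lay inside or below the control range. COL5A2 averaged 189 ± 125 CPM in the control and 390.0 ± 234 CPM in the knockout, and COL1A2 6.97 ± 3.11 and 14.7 ± 0.613 CPM. COL2A1 had 573, 221 and 1063 CPM and 629, 375 and 629 CPM, with a fitted difference near 0 (log2 -0.19, SE 0.901, adjusted p = 0.916). COL4A5 averaged 73.9 ± 12.8 and 104 ± 30.6 CPM, COL4A6 58.5 ± 5.47 and 44.9 ± 1.24, COL18A1 677 ± 230.3 and 737 ± 226, COL26A1 170.1 ± 23.5 and 212 ± 17.8, and COL9A3 102 ± 37.7 and 94.3 ± 23.2. The GC trend was -0.319 to 0.0959 in the control and 0.131 to 0.293 in the knockout with ATRA, and the GC offset took the call of COL4A4 (adjusted p = 0.0564, edgeR). None of the 5 calls with ATRA held with the close libraries summed (adjusted p 0.171 to 0.199). None held without control ATRA 1 (0.0600 to 0.0868), control ATRA 2 (0.0542 to 0.149), knockout ATRA 1 (0.122 to 0.147) or knockout ATRA 3 (0.0818 to 0.147). COL13A1 and COL4A4 also lost theirs without knockout ATRA 2 (0.0669 and 0.113), and COL11A1, COL13A1 and COL4A4 without control ATRA 3 (0.0519 to 0.0668). Without knockout untreated 1 only COL13A1 was called, and without knockout untreated 2 only COL13A1 and COL4A2. COL11A1 and COL4A4 lost their calls without control untreated 3, and COL4A4 without knockout untreated 3 (0.0608). Without control untreated 2 there were 8 calls, COL1A2, COL3A1 and COL4A1 being added. All genes called went from 1437 to 71 with the close libraries summed and to 2129 without control untreated 2. They went to 972, 632, 241 and 219 without control ATRA 1, control ATRA 2, knockout ATRA 1 and knockout ATRA 3. Without knockout ATRA 2 and without control ATRA 3 they were 831 and 2077. Without knockout untreated 1, knockout untreated 2, control untreated 3 and knockout untreated 3 they were 843, 820, 1223 and 1273.

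ATRA against no treatment gave no called collagen gene in either genotype by edgeR's quasi-likelihood test. In the control, 0.115% of all genes were called (0.0993% higher and 0.0157% lower), and 5 collagen genes (12.2%) had an unadjusted p under 0.05, against 20.7% of all genes. DESeq2 called 2 collagen genes, COL9A1 and COL28A1, and 1609 of the 20717 genes it gave an adjusted p (7.77%). COL28A1, the collagen with the smallest p there, had 2.14, 4.72 and 5.45 CPM without and 0.831, 1.77 and 0.933 CPM with ATRA (log2 -1.80, SE 0.436, adjusted p = 0.0682). COL9A1 went from 3.10, 4.91 and 12.7 to 2.28, 2.70 and 2.54 CPM (log2 -1.46, SE 0.497, adjusted p = 0.133). These were the only collagen genes whose control libraries did not overlap between treatments, 4.88% of the 41 against 14.8% of all genes (7.39% higher and 7.44% lower with ATRA). The untreated control libraries are the same as in the comparison of genotypes, where both genes were lower in the knockout. COL3A1 averaged 64.2 ± 59.7 CPM without ATRA and 407 ± 319 CPM with it in the control, and COL2A1 217 ± 207 and 619 ± 423 CPM. Neither was called (log2 2.67, SE 1.26, adjusted p = 0.252 for COL3A1). Without control untreated 1, 4 collagen genes were called (COL9A1, COL9A2, COL26A1 and COL28A1), and without control ATRA 2 also 4 (COL12A1, COL22A1, COL24A1 and COL28A1), while all genes called went from 22 to 2457 and 2419.

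In the knockout, 0.0314% of all genes were called (0.0261% higher and 0.00523% lower), and 5 collagen genes (12.2%) had an unadjusted p under 0.05, against 11.7% of all genes. DESeq2 called 1 collagen gene, COL13A1, and 2.9% of all genes. The median log2 fold change was -0.39 over the collagens and 0.02 over all genes, and 36 of 41 collagens had a negative sign. COL13A1 had 19.2, 20.4 and 41.3 CPM without and 9.88, 11.6 and 10.4 CPM with ATRA, with no overlap (log2 -1.34, SE 0.358, adjusted p = 0.162). COL1A2 went from 36.0, 38.0 and 47.3 to 14, 15.1 and 15.1 CPM (log2 -1.46, SE 0.588, adjusted p = 0.350). COL6A1 went from 641, 767 and 718 to 423, 188 and 434 CPM (log2 -1.03, SE 0.381, adjusted p = 0.303). For these 3 genes every ATRA library lay below every untreated library, as for 12 collagens in all, and 1, COL22A1, lay above, together 31.7% against 31.9% of all genes (17.2% above and 14.7% below). COL22A1 had 5.90, 5.95 and 6.64 CPM without and 9.85, 50.6 and 8.95 CPM with ATRA, the last set spread by knockout ATRA 2. Fitted on the knockout libraries alone, COL1A2, COL4A6, COL8A2 and COL13A1 were called, among 1336 of all genes. COL3A1 averaged 7601 ± 5443 CPM without ATRA and 7360.1 ± 4928 CPM with it.

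The difference between genotypes in the response to ATRA, tested as an interaction, was called by edgeR for 0% of all genes and no collagen gene, and by DESeq2 for 13 genes (0.0752%), none of them a collagen. By edgeR 3 collagens (7.32%) had an unadjusted p under 0.05, against 9.76% of all genes. They were COL13A1 (log2 -1.81, SE 0.5), COL8A2 (log2 -1.29, SE 0.515) and COL28A1 (log2 1.52, SE 0.615), all with an adjusted p of 0.509. The fewer calls with ATRA are therefore not shown to be a smaller genotype difference. For COL3A1 the interaction was -2.71 on the log2 scale with an SE of 1.71.

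The balance between chains of one trimer was compared per kilobase. Type I collagen is usually built from COL1A1 and COL1A2 chains in a fixed proportion. The ratio of COL1A1 to COL1A2 was 13.9, 3.82 and 7.55 in the untreated control libraries and 64.1, 67.8 and 11.8 in the untreated knockout. With ATRA it was 49.5, 12 and 63.3 in the control and 126, 26.9 and 119 in the knockout. The COL1A1 transcript thus outnumbered COL1A2 in all 12 libraries, and the ratio was high in the closely matching knockout libraries and lower in knockout untreated 3 and knockout ATRA 2. The ratio of COL4A1 to COL4A2 stayed between 0.446 and 0.721 in all 12 libraries, while both genes rose in the knockout. The ratio of COL4A5 to COL4A6 was 1.10, 1.05 and 0.931 in the untreated control and 2.48, 2.30 and 1.27 in the untreated knockout, without overlap. COL5A1 to COL5A2 ranged from 0.520 to 2.64 and COL6A1 to COL6A2 from 0.971 to 2.43. COL6A1 exceeded COL6A3 in every library, by 7.11 to 190.3 times. Between collagen types, COL3A1 stood to COL1A1 at 0.474, 0.345 and 1.08 in the untreated control libraries and 7.50, 6.93 and 3.85 in the untreated knockout. COL11A2 was left out of these ratios because its deposited length, 46855 bases, is far above its longest GENCODE transcript of 6422 bases.

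**Figure D4:**
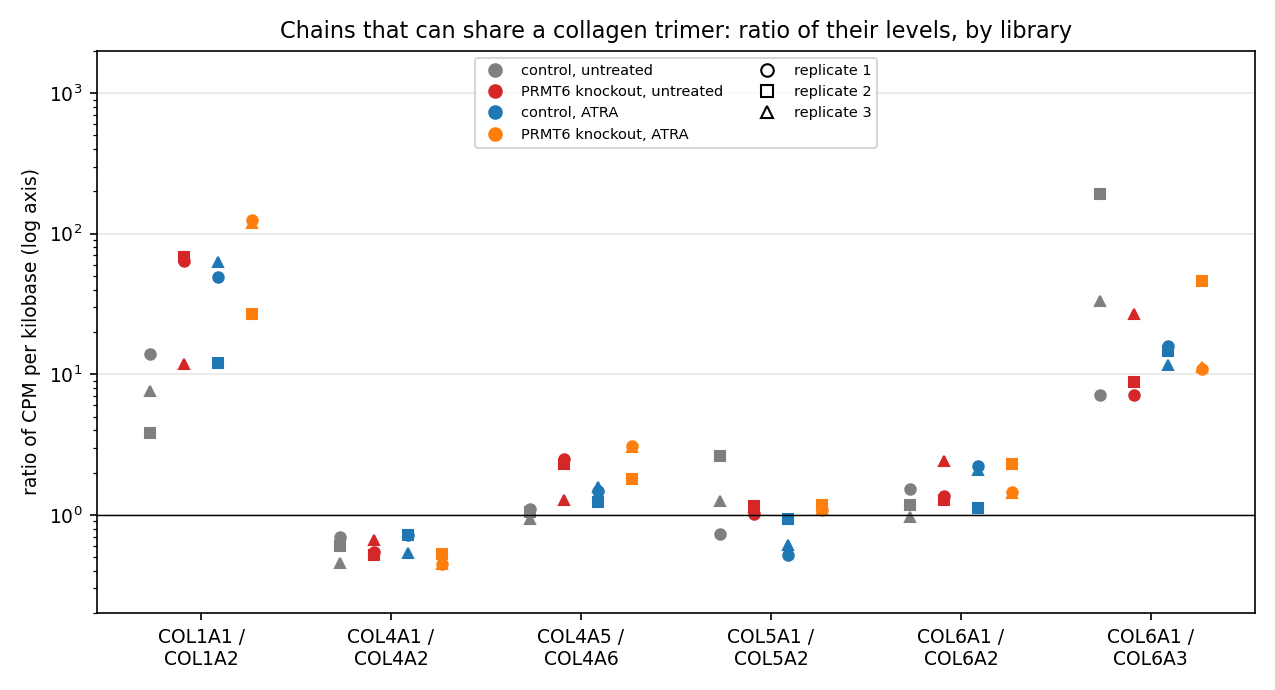
Ratio of the levels per kilobase of chains that can share a trimer, on a log axis, 1 point per library, with colour for the group and marker shape for the replicate number; the line marks equal levels. COL4A1 to COL4A2 is the tightest, at 0.446 to 0.721, while COL1A1 to COL1A2 spans 3.82 to 126 and COL6A1 to COL6A3 spans 7.11 to 190.3.

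How many collagens lay far below their group varied between libraries. In control untreated 2, 22 of 41 tested collagens (53.7%) lay below 0.5 times the mean of the other libraries of the group, against 14.2% of all genes. In knockout untreated 3 they were 11 (26.8% against 10.0%), in control ATRA 2 they were 12 (29.3% against 11.7%), and in knockout ATRA 2 they were 18 (43.9% against 9.72%). In control untreated 1 they were 10 (24.4% against 18.9%), and in the other 7 libraries 1 to 3 (2.44 to 7.32%, against 3.68 to 14.9%). COL1A1, COL3A1, COL5A1, COL5A2, COL6A3, COL8A1, COL11A1, COL14A1 and COL15A1 were below that mark in both knockout untreated 3 and knockout ATRA 2. COL3A1 stood at 0.123 times its group in knockout untreated 3 and 0.164 times in knockout ATRA 2, and COL6A3 at 0.301 and 0.105 times. Other collagens went the other way there: COL17A1 was at 2.55 and 1.93 times and COL20A1 at 2.27 and 4.22 times, both from low levels, and COL22A1 was at 5.38 times in knockout ATRA 2. COL4A6 was at 0.959 times and COL26A1 at 1.15 times in knockout ATRA 2. Because the libraries to which knockout untreated 3 and knockout ATRA 2 are compared lie so close to each other, each of these ratios rests on hardly more than 1 reference library.

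**Figure D5:**
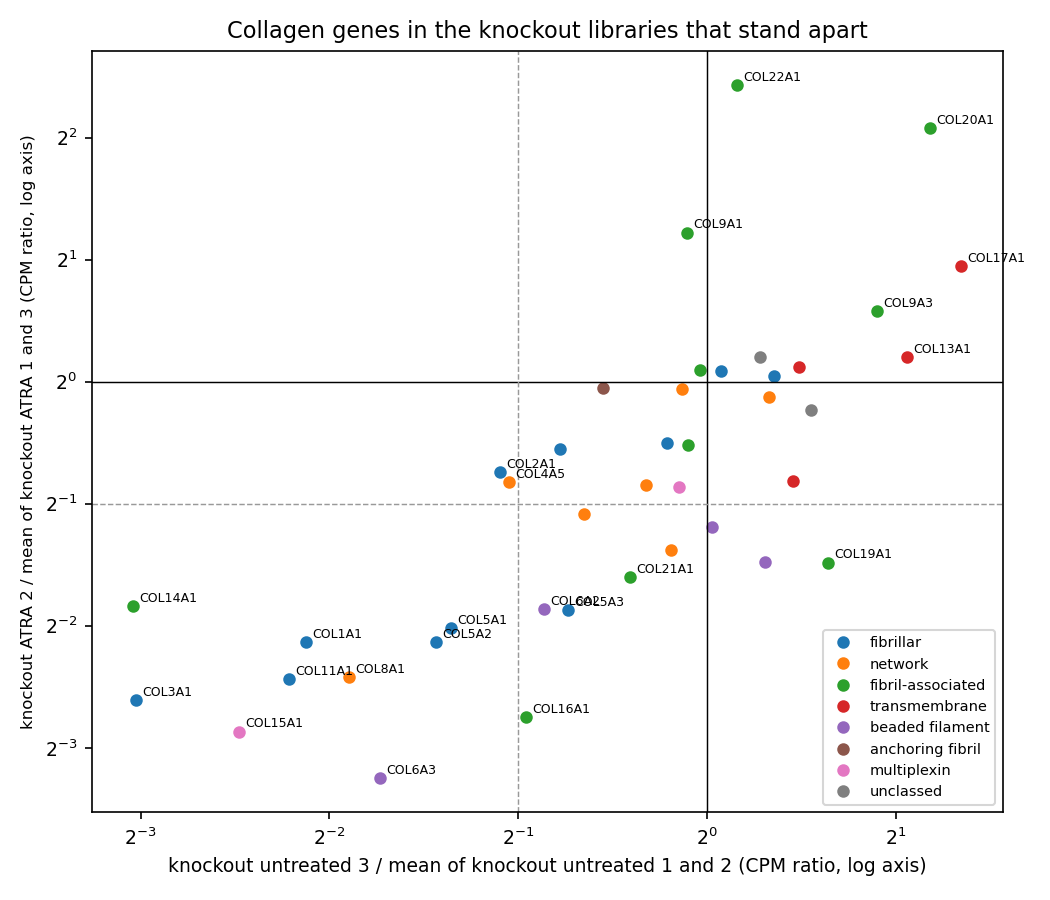
Level of each tested collagen gene in knockout untreated 3 (horizontal) and knockout ATRA 2 (vertical) divided by the mean of the other libraries of its group, on log axes, coloured by class. Dashed lines mark 0.5; the 9 genes in the lower left corner are below it in both libraries.

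The gene lists and markers below were chosen with earlier results of these data known. Their shares beside those of all genes are therefore a description and not independent evidence of an excess. Among 21 genes that modify and fold collagen chains, 8 (38.1%) were called higher and 1 (4.76%) lower in the untreated knockout, against 13% and 21.9% of all genes. LEPRE1, a prolyl 3-hydroxylase, had 196, 179 and 236 CPM in the untreated control and 477, 489 and 411 CPM in the untreated knockout (2.25-fold higher; adjusted p = 0.00382, edgeR). P4HA2, a catalytic subunit of prolyl 4-hydroxylase, had 15.7, 9.56 and 24.8 CPM and 91.1, 89.7 and 45.4 CPM (4.51-fold higher; adjusted p = 0.00484), and its partner P4HB was 2.29-fold higher (adjusted p = 0.00485). Both kept apart from the controls in knockout untreated 3. TMEM38B, a channel of the endoplasmic reticulum, was lower (2.96-fold lower). With ATRA 5 of the 21 (23.8%) were higher and none lower, against 3.27% and 4.24% of all genes. LEPRE1 was 2.15-fold higher, P4HA2 4.53-fold higher and P4HA3 8.56-fold higher there.

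Of 14 genes for propeptide cleavage and cross-linking, 6 (42.9%) were higher and 2 (14.3%) lower in the untreated knockout, against the same 13% and 21.9% of all genes. LOXL4 had 3.36, 2.20 and 3.11 CPM in the control and 24.7, 27.6 and 13.7 CPM in the knockout (7.60-fold higher; adjusted p = 0.00308, edgeR), and LOX, a lysyl oxidase like it, 3.76, 2.17 and 6.40 and 26.3, 25.3 and 10.8 CPM (5.05-fold higher; adjusted p = 0.00941). BMP1, the proteinase that trims the C-terminal propeptide, was 4.62-fold higher (adjusted p = 0.00887). With ATRA 3 (21.4%, against 3.27% of all genes) were higher: LOXL4 (4.94-fold higher), LOX (3.97-fold higher) and TLL1, a relative of BMP1. TLL1 was at 0 counts in the 3 control libraries and at 1.28, 1.58 and 1.27 CPM in the knockout (adjusted p = 0.0111, edgeR).

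Collagen receptors showed 3 of 9 (33.3%) higher in the untreated knockout and none lower, against 13% and 21.9% of all genes. DDR2, a receptor tyrosine kinase for fibrillar collagen, had 2.75, 0.564 and 4.09 CPM in the control and 73.6, 63.5 and 14.1 CPM in the knockout (20.4-fold higher; adjusted p = 0.00544, edgeR). ITGA11, the alpha chain of an integrin that binds type I collagen, had 2.11, 1.30 and 5.05 CPM and 50.5, 47.6 and 18.4 CPM (13.7-fold higher; adjusted p = 0.00333). MRC2, an endocytic collagen receptor, was 3.76-fold higher (adjusted p = 0.0111). With ATRA, where 3.27% of all genes were higher, the 3 receptors that were higher were ITGA11 (14-fold higher), DDR2 (10.9-fold higher) and DDR1 (1.53-fold higher). Of 7 genes for collagen breakdown and its inhibitors, 5 (71.4%, against 13% of all genes) were higher in the untreated knockout. They included the gelatinase MMP2, with 366, 182 and 276 CPM in the control and 1313, 1374 and 969 CPM in the knockout (4.44-fold higher), and the inhibitors TIMP1 (2.54-fold higher) and TIMP2 (3.43-fold higher). With ATRA 1 (14.3%, against 7.51% of all genes) was called, the gelatinase MMP9, which was 9.19-fold lower in the knockout. Among ATRA responses in the control, CTSK, the collagen-degrading cathepsin, fell (11, 13.9 and 7.64 CPM without and 2.61, 3.09 and 3.71 CPM with ATRA; adjusted p = 0.0441, edgeR).

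Of 15 transcription factors that are known to act on collagen genes, 3 were higher and 3 lower in the untreated knockout, 20% each way, near the 13% and 21.9% of all genes. TWIST1, a mesenchymal regulator, had 11.2, 12.9 and 8.97 CPM in the control and 48.0, 49.6 and 51.6 CPM in the knockout (4.51-fold higher; adjusted p = 0.00142, edgeR), with knockout untreated 3 as high as its group. SMAD4 and SMAD2, which carry the TGF-beta signal, were lower (2.29-fold lower and 1.85-fold lower). With ATRA TWIST1 alone was called (3.19-fold higher), 6.67% of the list against 7.51% of all genes. The median log2 fold changes in the untreated comparison were 0.66 for modification and folding, 0.82 for cleavage and cross-linking, 0.43 for receptors, 1.34 for breakdown and 0.36 for the transcription factors, against -0.11 over all genes. With the close libraries summed, 3, 1, 2, 1 and 2 genes of these lists, in the same order, were called in the untreated comparison and none with ATRA. Of all genes, 1072 and 71 were then called.

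Marker lists of 3 cell types rich in collagen had members called higher in the knockout, and that of chondrocytes had none. Of all genes, 13% were called higher and 21.9% lower untreated, and 3.27% and 4.24% with ATRA. Untreated, 66.7% of smooth muscle, 60% of fibroblast and 66.7% of parietal endoderm markers were called higher. In lists this short a single call moves the share widely. Smooth muscle markers summed to 50.8 to 222 CPM in the untreated control and 864 to 2422 CPM in the untreated knockout, and 4 of 6 were called higher there, with ACTA2 at 16.9, 1.73 and 8.20 and 685, 695 and 120.2 CPM. Fibroblast markers summed to 237 to 459 CPM in the untreated control and 456 to 835 CPM in the untreated knockout, and 6 of 10 were called higher and 1 (PDGFRA) lower. LUM, a proteoglycan that binds collagen fibrils, had 1.79, 0.194 and 5.81 CPM in the control and 79.8, 79.7 and 9.03 CPM in the knockout. Parietal endoderm markers summed to 645 to 1438 CPM and 2403 to 4430 CPM, with 4 of 6 called higher, most of the sum being SPARC, a collagen-binding matrix protein. ACTA2 and LUM were low in knockout untreated 3, as were COL3A1 and COL1A1. The endoderm regulator GATA4 was not, at 34.0, 32.2 and 49.3 CPM in the untreated knockout. These are single members of their lists and do not stand for them: the parietal endoderm sum itself spanned 2403 to 4430 CPM in the untreated knockout. With ATRA the control and the knockout gave 119.8 to 568 and 577 to 2588 CPM for smooth muscle markers, 341 to 517 and 254 to 700.02 CPM for fibroblast markers, and 923 to 1742 and 2108 to 4374 CPM for parietal endoderm markers. With ATRA 1 of 6 smooth muscle markers was called higher and 1 lower, 3 of 10 fibroblast markers higher and 1 lower, and 2 of 6 parietal endoderm markers higher. Chondrocyte markers summed to 16.4 to 74.5 CPM in the untreated control and 52.3 to 82.8 CPM in the untreated knockout, and to 59.1 to 123.9 and 85.1 to 136 CPM with ATRA, and none of 6 was called in either comparison. Summed endothelial markers lay lower in the knockout without overlap, at 37.1 to 103.7 CPM in the control and 32.5 to 33.9 CPM in the knockout without ATRA and at 70.5 to 109.9 and 23.7 to 26.0 CPM with it. In both comparisons VWF and TIE1 were called lower and ERG higher among the 6 tested, and PECAM1 had 0 counts in all 12 libraries. Of 6 neuron markers none was called. Of 6 trophoblast markers 1 was called, higher without ATRA (16.7%, near the 13% of all genes). Of 10 pluripotency markers, 2 (20%) were called lower in the knockout without ATRA and 1 (10%) with it, against 21.9% and 4.24% of all genes, and none higher. The part of other cell types in the collagen levels was not tested.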

How the data were processed

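Poly(A) RNA was sequenced as stranded TruSeq libraries, according to the labels' protocols. What the authors deposited is 1 table of unnormalized whole-number counts, a row per gene and a column per library. The submitters' processing notes name the tools DESeq2, featureCounts, Subread, TopHat2 and bcl2fastq and the builds GRCh37 and hg19, without saying how each was used. The strand setting, tool versions and annotation release were not given in the sources used here. Antisense rows of COL4A2, COL5A1 and COL18A1 had at most 6 counts in a library. The table's gene length was used to compare levels between genes.

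From the counts, genes were filtered with filterByExpr (minimum count 10, 19130 kept), scaled by TMM and fitted in edgeR 4.0.16 (R 4.3.3) with 1 coefficient per group over 12 libraries. Quasi-likelihood F-tests gave 5 contrasts, with p adjusted by Benjamini-Hochberg over all genes, called under 0.05. Adjusted p in the text always means this. The biological coefficient of variation was 0.367. Alternatives used DESeq2 1.42.0, limma 3.58.1 (voom), other scaling, filters and libraries, a replicate block and a GC offset (GC content known for 85.6% of genes). The steps were tested on simulated data, with changes placed in genes above 5 CPM. Simulated libraries of a group were independent, with no close pair and no library apart, so the rates below may not hold for the real groups. Between groups, edgeR called 75 to 79% of 4-fold changes and 2 to 9% of 2-fold changes. For the interaction it called 23% of 4-fold and 0% of 2-fold changes. The absence of a call is therefore not the absence of a change. Collagen classes, lists and markers were chosen with earlier results of these data known. Called collagens, their trimer partners and those of at least 50 CPM were named, and from each list up to 3 called genes, taken by smallest adjusted p. Promoter windows came from RefSeq (GRCh38.p14), and none is shown or counted for COL1A1, COL1A2, COL2A1, COL3A1, COL5A2, COL6A1, COL6A5, COL8A1, COL9A3, COL14A1, COL20A1 and COL22A1.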

Additional observations from a re-analysis of the deposited data

How the results depend on the processing

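The untreated comparison gave 17 called collagen genes, and 7 to 20 when 1 library was left out (7 without knockout untreated 2, 20 without control untreated 1). Summing the close knockout libraries gave 4 (COL3A1, COL4A1, COL4A2 and COL6A1). The other settings gave 13 to 20, among them 20 by DESeq2, 14 without knockout untreated 3 and knockout ATRA 2, and 13 with a GC offset, under which COL1A1, COL6A3, COL26A1 and COL8A2 lost their calls. All genes called were 6676 in the main fit, 3058 without knockout untreated 2, 8453 without control untreated 1 and 1072 with the close libraries summed. They were 7718 by DESeq2, 4467 without knockout untreated 3 and knockout ATRA 2, and 3065 with the GC offset.

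With ATRA the count of 5 went to 9 by DESeq2, 11 without a filter on low counts, 1 with only the groups compared, 0 with the close libraries summed, and 0 to 8 when 1 library was left out. All genes called went from 1437 to 2865, 2317, 768 and 71 in the first 4 of these settings. With 1 library left out they ranged from 219 (without knockout ATRA 3) to 2129 (without control untreated 2). No collagen gene was called for ATRA in the control, except 2 by DESeq2 (1609 of all genes), 2 without a filter on low counts (1407 of all genes), and 0 to 4 when 1 library was left out (up to 2457 of all genes). In the knockout the exceptions were 1 by DESeq2 (540 of all genes) and 4 with only the groups compared (1336 of all genes), and leaving out a library gave 0 each time. The interaction gave 0 collagen genes in each setting run.

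The replicate number as a block gave 17 untreated and 3 with ATRA, among 5772 and 761 of all genes. Together with the GC offset it gave 13 untreated and 2 with ATRA, among 2394 and 792 of all genes. Deviations of same-numbered libraries of different groups had correlations of both signs (-0.49 to 0.39). The highest correlation of any pair, 0.58, was between knockout untreated 3 and knockout ATRA 2, which stand apart. Deviations from the mean of 3 libraries follow such libraries, so they cannot show whether the numbers mark a pairing.

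Of the 17 and 5 called collagen genes, all kept their direction in 22 and 23 of 23 settings; in the remaining one COL19A1 was removed by the filter of over 1 CPM in at least 3 libraries. RLE scaling moved the median of all genes by 0.0755 on the log2 scale. The close libraries, whose independence is not stated, and the single knockout line limit what the counts above can carry, and low genes such as COL19A1 rest on few counts.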
